A study of Homo sapiens with 9 samples.

Results

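Reference genes are the transcripts against which a qRT-PCR signal is divided, on the premise that they hold the same level in every sample of a design. 8 genes in common use for this purpose were followed here: GAPDH, ACTB, TBP, HPRT1, B2M, PPIA, YWHAZ and TFRC. They were chosen by name, with earlier results of these data known, and all 8 were found among the 54562 genes measured and passed the minimum mean of 1 FPKM set for testing. The level of each gene was given as FPKM, the number of sequenced fragments divided by the length of the gene and by the sequencing depth.

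The samples were HEK293 cells, a human embryonic kidney line that takes up plasmid DNA readily. The cells received the empty vector (EV), a plasmid for the ADARB1 isoform that skips an Alu-derived exon (Short) or a plasmid for the isoform that includes it (Long), and RNA was taken 48 hours later. ADARB1 is an enzyme that converts adenosine to inosine in double-stranded RNA. The transfections were done in 3 cell passages, which gave 3 libraries per group and 9 in all. The replicate number was taken to stand for the passage, which the labels do not state. All groups were transfected cells of a single line, and no untransfected cells were compared. A passage is a subculture of that line, and how far apart the 3 passages were is not stated. The fit takes passage means out, so its p-values between groups measure the spread left within passages. No p-value measures the spread between lines.

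A reference gene can fail in 2 ways in such a design. It can differ between passages, in which case it adds noise to every ratio unless samples are compared within a passage, or it can move with the plasmid, in which case it shifts the comparison itself. The 8 genes serve unrelated functions. GAPDH encodes a glycolytic enzyme and ACTB the cytoplasmic beta-actin of the cytoskeleton. TBP binds the TATA box as part of the general transcription factor TFIID. HPRT1 salvages purine bases, and B2M is the light chain of MHC class I molecules. PPIA is cyclophilin A, a prolyl isomerase, YWHAZ is a 14-3-3 adaptor protein, and TFRC is the transferrin receptor, which carries iron into the cell.

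The libraries were similar in depth, at 0.997 to 1.2 times that of EV replicate 1 as read from the spacing of the lowest FPKM values, an estimate on which 22.5% to 46.1% of 571 to 639 low genes fell. The FPKM of all genes summed to between 517170 and 589535. No counts were used, so no counting intervals could be given. Of the HEK293 markers, VIM (132 to 164 FPKM), NEFM (48.6 to 75.5 FPKM), KRT8 (163 to 216 FPKM) and KRT18 (76.3 to 99.6 FPKM) were present in all libraries, and NEFL was not matched. Among markers of other cell types, PTPRC, CD3E, ALB and DCN stayed under 1 FPKM in every library, HBB was listed at 0, and PECAM1 was not matched.

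The genes covered a wide range of abundance. GAPDH (ENSG00000111640, chr12:6643678-6647540, plus strand, hg19) averaged 2143 FPKM, ACTB (ENSG00000075624, chr7:5566040-5603533, minus strand) 1129 FPKM and PPIA (ENSG00000196262, chr7:44836279-44864163, plus strand) 1012 FPKM. B2M (ENSG00000166710, chr15:45003556-45011049, plus strand) averaged 330.1 FPKM and YWHAZ (ENSG00000164924) 304 FPKM. HPRT1 (ENSG00000165704, chrX:133594195-133654543, plus strand) averaged 78.5 FPKM, TFRC (ENSG00000072274, chr3:195739382-195809024, minus strand) 67.3 FPKM and TBP (ENSG00000112592, chr6:170863390-170881958, plus strand) 19.7 FPKM. ADARB1 was at 7.66 to 8.61 FPKM in the EV libraries and at 1695 to 4145 FPKM in the plasmid libraries, so TBP was the member closest to its endogenous level, and GAPDH and ACTB were closest to its level after transfection.

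PPIA and YWHAZ have processed pseudogenes that were themselves listed with reads. Processed pseudogenes are copies of an mRNA inserted elsewhere in the genome. PPIAP22, on chr21:20230097-20230594, aligned with the whole coding sequence of PPIA, 498 nt, with 2 mismatches (99.6% identity), and 251 of the 399 windows of 100 bases in that sequence (62.9%) had an exact match in it. The stretches around the 2 mismatches are printed because, within the coding sequence, they are the places where a read can tell the genes apart. Sequence of PPIA outside the coding part was not compared. Capitals mark the base that differs, both genes are on the plus strand of GRCh37, and the substitutions are G279A and T327A, counted from the first coding base with the PPIA base first.
PPIA chr7:44839375-44839404: catcctaaagcatacGggtcctggcatctt
PPIAP22 chr21:20230360-20230389: catcctaaagcatacAggtcctggcatctt
PPIA chr7:44839423-44839452: acccaacacaaatggTtcccagtttttcat
PPIAP22 chr21:20230408-20230437: acccaacacaaatggAtcccagtttttcat

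PPIAP22 was listed at 663 to 801 FPKM, or 64.2% to 72.6% of the PPIA value of the same library. The level of PPIA, and of PPIAP22, is therefore uncertain, since the counting could split shared reads between them. Summing both gave an SD of 0.0835 (log2) over the 9 libraries, against 0.0894 for PPIA alone. The log2 ratio of PPIAP22 to PPIA had an SD of 0.0602. FPKM values of genes of unlike length do not add as reads do. How far the split altered the spread of PPIA was therefore not tested. YWHAZP3, on chr10:23425853-23426590, matched the 738 nt coding sequence of YWHAZ with 18 mismatches (97.56% identity) and stood at 10.4% to 12.1% of YWHAZ. The 64 GAPDH pseudogenes in the table summed to 0.099% of GAPDH and the 10 ACTB pseudogenes to 0.0152% of ACTB, while the 3 HPRT1 pseudogenes were listed at 0. No pseudogene named after TBP, B2M or TFRC was in the table.

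Over the 9 libraries 5 members had a smaller spread than GAPDH, and 6 had a smaller spread than ACTB. Without passage 3 none was below GAPDH and 6 were still below ACTB. The SD of log2 FPKM was 0.0845 for HPRT1, 0.0894 for PPIA, 0.0917 for TBP, 0.105 for B2M and 0.121 for YWHAZ, and it was 0.132 for GAPDH, 0.152 for ACTB and 0.314 for TFRC. Among the 7510 genes that averaged at least 10 FPKM the median SD was 0.138, with quartiles of 0.105 and 0.190. HPRT1 thus varied less than 89.9% of these genes, PPIA less than 86.9% and TBP less than 85.6%, while GAPDH, with 54.2% of genes above it, was near the middle. ACTB varied more than the median gene, and only 7.91% of genes varied more than TFRC.

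**Figure D1:**
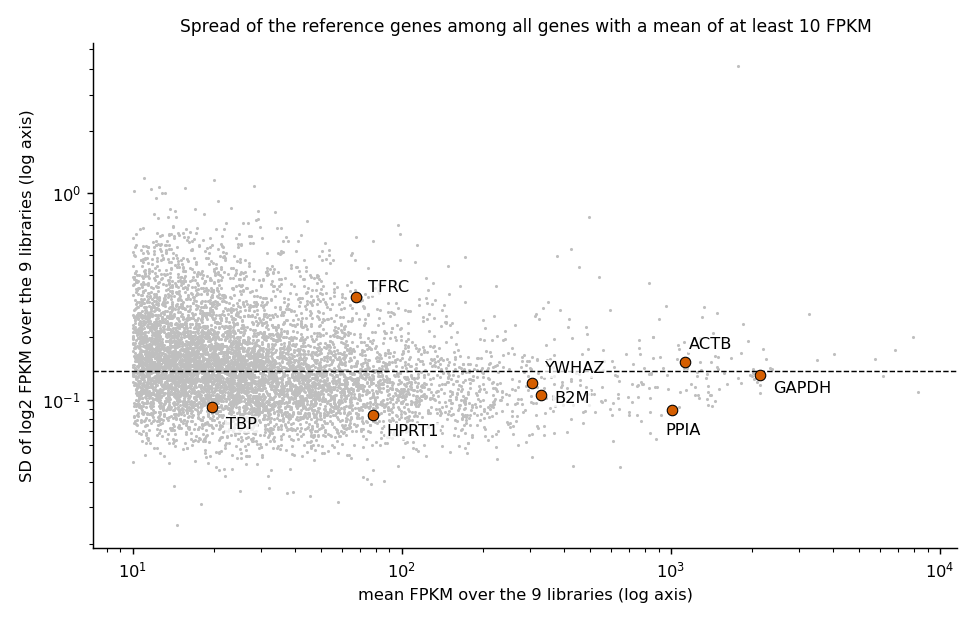
SD of log2 FPKM over the 9 libraries against mean FPKM (both log axes) for the 7510 genes that averaged at least 10 FPKM (grey) and the 8 reference genes (orange); the dashed line is the median SD of 0.138. HPRT1, PPIA, TBP, B2M, YWHAZ and GAPDH lie below the line, and ACTB and TFRC above it.

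The differences between members were small against the number of libraries. Each gene was compared with GAPDH and with ACTB by swapping the 2 centred log2 values within libraries (exact two-sided permutation test, 512 swaps, smallest possible p = 0.00391), with adjustment over the 13 pairs. No pair passed this exact test: TFRC against GAPDH gave p = 0.00781 (adjusted p = 0.102) and TFRC against ACTB p = 0.0234 (adjusted p = 0.152). The next were PPIA (p = 0.0898) and HPRT1 (p = 0.102) against GAPDH, both with an adjusted p of 0.33 by the same exact test. The SD of PPIA minus that of GAPDH was -0.042, and the SD of HPRT1 minus that of GAPDH was -0.047. Swapping whole passages leaves 8 arrangements, and the exact permutation test cannot then go below p = 0.25. The order of the SDs is thus a description of these 9 libraries.

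GAPDH was the most abundant member and its spread lay between passages. In passages 1, 2 and 3 the EV libraries held 2229.7, 2147 and 1856 FPKM, the Short libraries 2438, 2372 and 1981 FPKM, and the Long libraries 2211, 2118 and 1938 FPKM. Passage 3 was the lowest in each group, and the groups overlapped. The FPKM sum of the library was also lowest in passage 3 in each group. With all libraries scaled to the same sum the SD of GAPDH was 0.095, against 0.132 without. Its passage difference still passed then (limma adjusted p = 0.00512). Without that scaling the passage accounted for 76.4% of the variance of GAPDH, the group for 19.9% and 3.7% was left over. The medians over the 7510 genes that averaged at least 10 FPKM were 51.4%, 21.9% and 18.2%. With group and passage means removed, GAPDH had the smallest residual SD of the 8 members, 0.0358, and PPIA followed with 0.0517.

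ACTB behaved in the opposite manner, with most of its variance (59.5%) between groups and 32.6% between passages. The EV libraries of passages 1, 2 and 3 held 1116, 958 and 959 FPKM, the Short libraries 1336, 1128 and 1122 FPKM, and the Long libraries 1211, 1163 and 1169.6 FPKM. Every plasmid library was above every EV library. Libraries of 13% of all 13801 genes tested did not overlap between Short and EV, and those of 13.6% did not between Long and EV. ACTB was also above the EV library of the same passage in all 6 pairs, as were 17.8% of the genes tested. The EV libraries are shared by both sets of pairs, and in each pair EV had the smaller FPKM sum. The ACTB differences were of like size, 0.23 to 0.26 (log2) in Short and 0.12 to 0.29 in Long. They varied less (SD 0.0617 over the 6 pairs) than those of any other member.

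**Figure D2:**
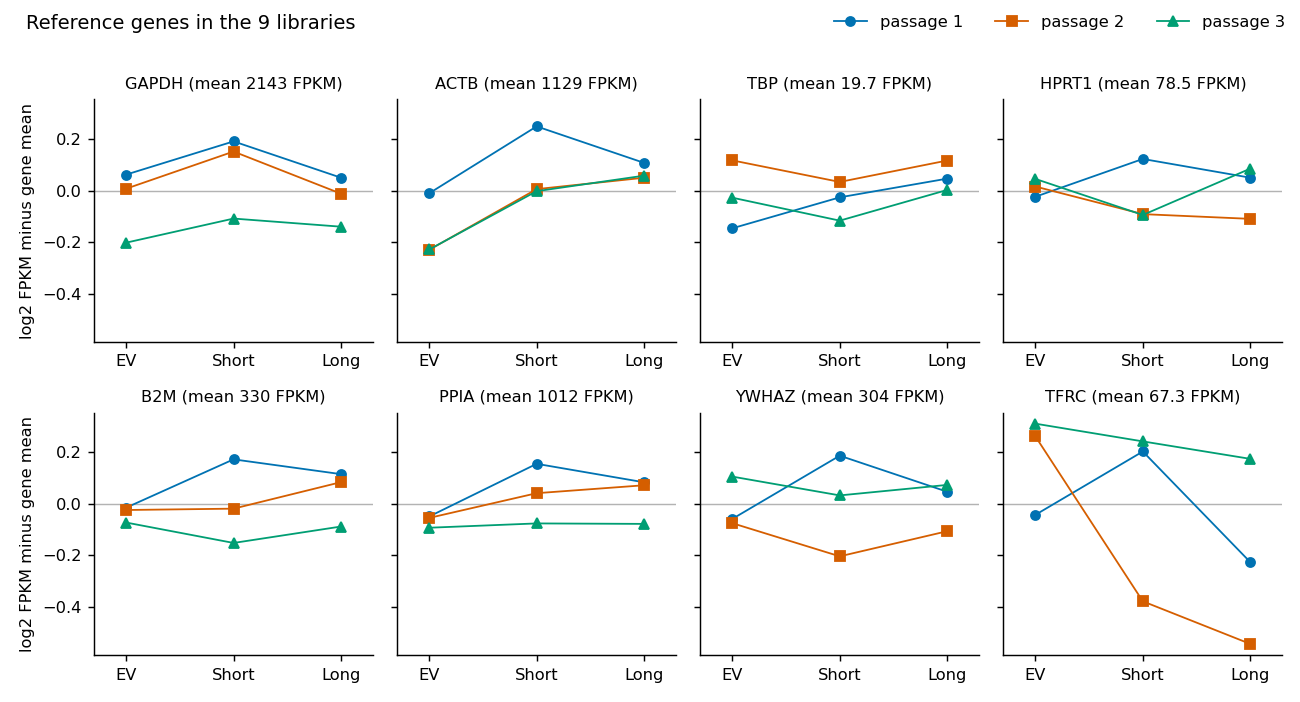
Log2 FPKM of each reference gene minus its mean over the 9 libraries (y axis) in EV, Short and Long (x axis); each line joins the 3 libraries of a passage. GAPDH is lowest in passage 3 in every group, ACTB is lowest in EV in every passage, and TFRC spans the widest range, 0.86 on the log2 scale.

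TBP and HPRT1 had the third smallest and the smallest SD. The group held 21.1% of the variance of TBP and the passage 53.4%. TBP was at 17.8, 21.3 and 19.3 FPKM in EV, 19.3, 20.1 and 18.1 FPKM in Short and 20.3, 21.3 and 19.7 FPKM in Long. Passage 2 was the highest in each group, and the groups overlapped. HPRT1 was at 77.1, 79.2 and 80.9 FPKM in EV, 85.3, 73.5 and 73.4 FPKM in Short and 81.1, 72.6 and 83.1 FPKM in Long. The highest and the lowest HPRT1 value differed by 1.18-fold, the narrowest range of the 8 members. The mean of its EV libraries was 79.1 ± 1.90 FPKM (SD, n = 3), that of the Short libraries 77.4 ± 6.85 FPKM and that of the Long libraries 79.0 ± 5.58 FPKM. The group held 3.52% of its variance, and 62.7% was left over after group and passage, the largest such share.

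B2M and PPIA moved together. B2M was at 326, 324 and 313 FPKM in EV, 371, 325 and 296 FPKM in Short and 357, 349 and 309.7 FPKM in Long. PPIA was at 976, 973 and 947 FPKM in EV, 1125, 1039 and 958 FPKM in Short and 1070.4, 1062 and 957 FPKM in Long. Passage 3 was the lowest in each group for both genes, and the groups overlapped. With the same sum in each library the SD was 0.066 for B2M and 0.041 for PPIA, against 0.105 and 0.0894 without. Over the 9 libraries their log2 values had a Pearson correlation of 0.92, given as a description since all genes of a library share its scaling. PPIA was above the EV library of the same passage in all 6 pairs, by 0.015 to 0.20 (log2), and B2M in 4 of 6.

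YWHAZ (chr8:101928751-101965616, minus strand, hg19) differed by passage and hardly by group. It was at 291, 287 and 326 FPKM in EV, 345, 263 and 309.7 FPKM in Short and 313, 281 and 319 FPKM in Long. Passage 2 was the lowest in each group, the group held 0.35% of the variance and the passage 64.0%. TFRC was the least steady member, at 64.1, 79.1 and 81.9 FPKM in EV, 76.0, 50.7 and 78.1 FPKM in Short and 56.4, 45.2 and 74.5 FPKM in Long. Its lowest 2 values were the Short and Long libraries of passage 2, and it was below the EV library of the same passage in 5 of 6 pairs. Without passage 2 its SD was 0.204, still the highest of the 8.

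Against the empty vector, ACTB in Long cells was the only member whose difference passed the test. The values were fitted as log2(FPKM + 1) with limma and the passage as a block, with Benjamini-Hochberg adjustment over 13801 genes. ACTB was higher in Long than in EV by 0.23 ± 0.045 (log2, SE; 95% interval 0.13 to 0.33; adjusted p = 0.0156), or 1 of 8 members called against 8.32% of all genes. That call was lost without the passage block (limma adjusted p = 0.637), with correction for GC content (0.139), by eBayes without a trend (0.0937), with no filter (0.342) and with each replicate left out (0.0566 to 0.192), and so it held in 5 of 12 alternatives. The direction held in all 12. The difference was 0.14 (log2) with GC correction, 0.15 with the same sum in each library and 0.20 to 0.28 with a replicate left out. In Short the ACTB difference was 0.24 ± 0.045 (log2, SE; adjusted p = 0.110), and 0.16 with the same sum in each library. For the Short comparison 0 of 8 members and 0.0362% of all genes were called, and 3 members (ACTB, GAPDH and PPIA) and 22% of all genes had an unadjusted p under 0.05. For Long against EV 2 members (ACTB and TFRC) and 24.4% of genes did.

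GAPDH, by the same fit, was 0.12 ± 0.036 higher in Short than in EV (log2, SE; 95% interval 0.04 to 0.20; adjusted p = 0.117) and 0.01 ± 0.036 higher in Long (-0.07 to 0.09; adjusted p = 0.898). PPIA was 0.11 ± 0.042 above EV in Short (adjusted p = 0.186) and 0.09 ± 0.042 in Long (adjusted p = 0.219). With the same sum in each library the Short difference of GAPDH was 0.038, and PPIA was 0.021 above EV in Short and 0.016 in Long. With median-ratio scaling these were 0.065, 0.048 and 0.046, and with GC correction 0.038, 0.094 and 0.039. TFRC was at -0.15 ± 0.134 in Short (adjusted p = 0.531) and -0.37 ± 0.134 in Long (adjusted p = 0.121). The estimates of TBP, HPRT1, B2M and YWHAZ lay between -0.03 and 0.07 in both comparisons, with intervals that reached at most -0.18 and 0.22. With GC correction B2M was 0.17 above EV in Short (limma adjusted p = 0.317) and 0.25 in Long (0.0545). These misses do not show that the levels were alike. For HPRT1 in Long the interval ran from -0.15 to 0.14.

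**Figure D3:**
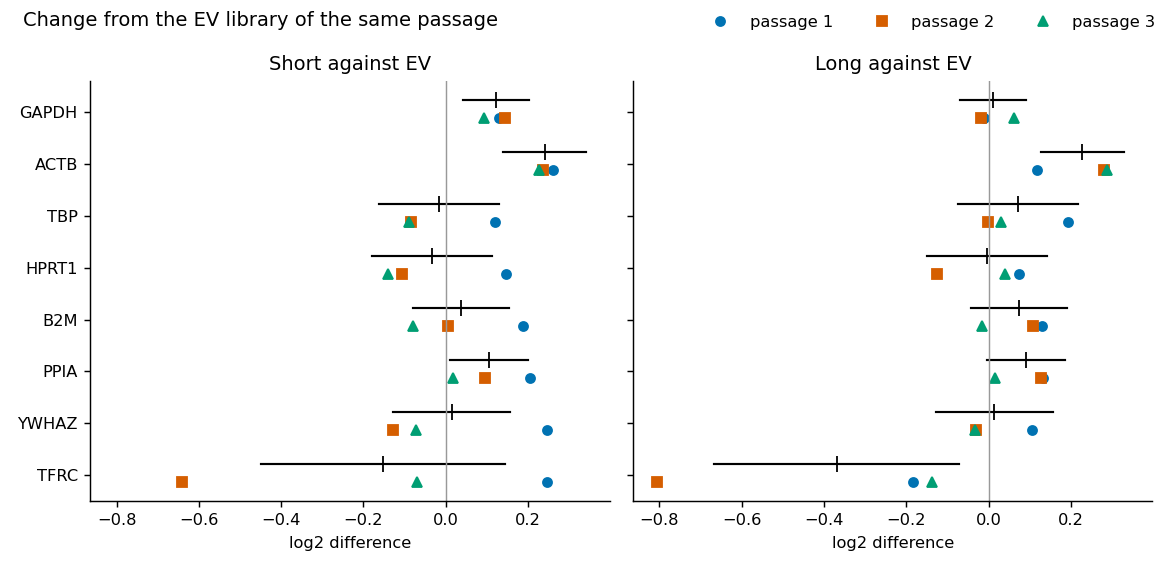
Log2 difference of each reference gene from the EV library of the same passage (x axis), for Short (left) and Long (right); coloured symbols are the 3 passages, the black tick and line the limma estimate and its 95% interval on the log2(FPKM + 1) scale. ACTB is to the right of 0 in all 6 pairs, and its Long estimate is 0.23.

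Between Long and Short, the comparison for which the plasmids were made, 0 of 8 members passed, as did 0.00725% of all genes. GAPDH was lower in Long than in Short, with a log2 difference of -0.11 ± 0.036 (SE; 95% interval -0.19 to -0.03; limma adjusted p = 0.547), and it was the only member with an unadjusted p under 0.05, as had 7.54% of all genes. ACTB differed by -0.01 (95% interval -0.11 to 0.09), PPIA by -0.01 (-0.11 to 0.08) and HPRT1 by 0.03 (-0.12 to 0.17).

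Differences between passages were more common. By limma's moderated F test 4 of 8 members differed between the 3 passages, against 36.4% of all genes: GAPDH (adjusted p = 0.00137), ACTB (0.0172), B2M (0.0375) and PPIA (0.0482). GAPDH was lower in passage 3 than in passage 1, by a log2 difference of -0.25, and for ACTB passages 2 and 3 each differed from passage 1 by -0.17. YWHAZ (adjusted p = 0.0505), TFRC (0.0542), TBP (0.212) and HPRT1 (0.374) did not pass, but which members passed depended on the scaling. With the same sum in each library ACTB (limma adjusted p = 0.0714), B2M (0.166) and PPIA (0.283) lost the call and YWHAZ (0.027) and TFRC (0.0416) gained it. With median-ratio scaling B2M (0.152) and PPIA (0.297) lost it and YWHAZ (0.0327) and TFRC (0.0391) gained it. With GC correction GAPDH (0.0758) and PPIA (0.299) lost it and HPRT1 (0.0471) gained it. Without adjustment 6 of 8 members had a p under 0.05, against 47.7% of all genes. Without replicate 3, GAPDH (adjusted p = 0.511), ACTB (0.219), B2M (0.542) and PPIA (0.656) all lost the call, without replicate 1 ACTB (0.993), B2M (0.0646) and PPIA (0.0726) did while YWHAZ (0.0107) and TFRC (0.0365) gained it, and without replicate 2 PPIA (0.0507) lost it and TFRC (0.0215) gained it. Further losses came by eBayes without a trend for ACTB (0.102), B2M (0.127) and PPIA (0.204), and with no filter for all 4 (0.0889 to 0.401). At a minimum mean of 5 FPKM YWHAZ (0.0391) and TFRC (0.039) passed.

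The geNorm measure M, which averages the SD of a gene's log2 ratio to each other candidate, gave a related order. It was lowest for PPIA (0.137), B2M (0.142) and HPRT1 (0.145), followed by YWHAZ (0.165), GAPDH (0.172), TBP (0.174) and ACTB (0.180), and it was highest for TFRC (0.344). Stepwise removal of the least stable gene took out TFRC, YWHAZ, ACTB, HPRT1, TBP and GAPDH in that order and left B2M and PPIA, whose ratio had an SD of 0.041. M is low for genes that move together, and B2M, PPIA and GAPDH were all lowest in passage 3.

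**Figure D4:**
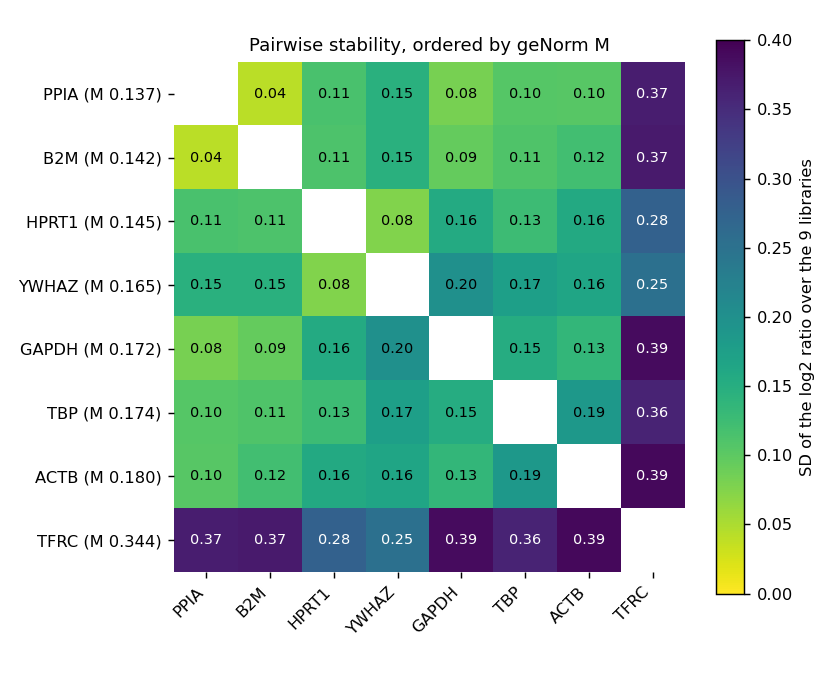
SD of the log2 ratio of each pair of reference genes over the 9 libraries (colour and printed value), ordered by geNorm M, which is given beside each name. The pair PPIA and B2M has the lowest SD, 0.041, and all pairs with TFRC are at 0.25 or above.

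Which member was steadier than GAPDH or ACTB depended on the measure. Over 11 measures (the SD, the coefficient of variation, M, 3 other scalings, the residual SD, the differences from EV, and the SD with each passage left out), PPIA was placed between the first and the fourth of the 8, ahead of GAPDH in 8 measures and of ACTB in 10. HPRT1 was ahead of GAPDH in 7 and of ACTB in 9, B2M in 7 and 8, TBP in 6 and 8, and YWHAZ in 5 and 7. TFRC was ahead of neither in any measure. GAPDH came first where passage differences were taken out or passage 3 was left out, and ACTB came first for the SD of differences from EV, a measure that does not see its constant offset. The measures share libraries and are not independent of each other.

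GC correction changed the places of B2M and HPRT1 most, by 4 places each. The longest annotated transcript of B2M has a GC content of 38.9%, the lowest of the 8, against a median of 47.78% for the genes tested. The correction used the longest annotated transcript of each gene, and whether that was the one expressed was not tested. With a loess correction for GC content in each library the SD of B2M became 0.247, the highest of the 8, and PPIA, at 46.1% GC, had the lowest at 0.0600. HPRT1 (40.4% GC), first in the main order, then had an SD of 0.117 and stood behind GAPDH (57.6% GC) with 0.0810.

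The qRT-PCR of a plasmid transcript divides it by a reference gene, so the ADARB1 difference between Long and Short was computed against each member. Without a reference, Long minus Short on the log2 scale was -0.16, -0.27 and -0.40 in passages 1, 2 and 3, a mean of -0.27 ± 0.120 (SD, n = 3). Relative to GAPDH the mean was -0.16 ± 0.182, the smallest in size after TFRC, and relative to TBP it was -0.36 ± 0.143, the largest. ACTB (-0.26), PPIA (-0.26), YWHAZ (-0.27), HPRT1 (-0.30) and B2M (-0.31) lay between them. Without replicate 3 the mean relative to GAPDH was -0.058, relative to ACTB -0.16 and relative to HPRT1 -0.17. With these 7 references the ratio was below 0 in all 3 passages (exact two-sided sign-flip permutation test, p = 0.25, the smallest that 3 pairs allow). Relative to TFRC it was 0.27 in passage 1, -0.10 in passage 2 and -0.33 in passage 3, a mean of -0.05 ± 0.303, so its sign differed between passages. The geometric mean of all 8 members gave -0.25 ± 0.204.

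**Figure D5:**
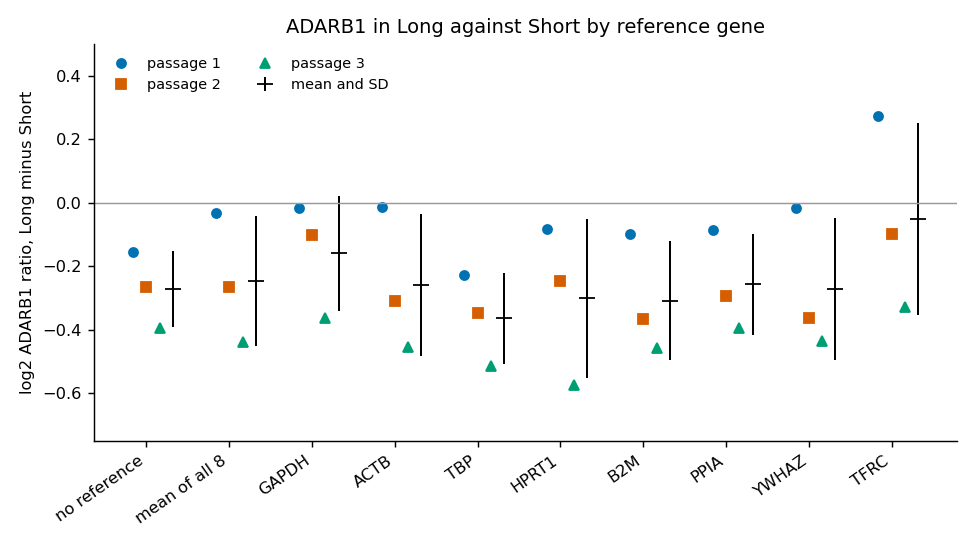
Log2 ratio of ADARB1 FPKM in Long to that in Short of the same passage (y axis), without a reference and after division by the mean of all 8 members or by each member (x axis); symbols are passages and black bars the mean and SD of 3. The mean runs from -0.36 with TBP to -0.05 with TFRC, the only reference with a passage above 0.

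Against the size of the ADARB1 increase over EV the choice made little difference. Relative to the 8 members the mean log2 increase in Short ran from 8.18 with ACTB to 8.58 with TFRC, and in Long from 7.92 with ACTB to 8.53 with TFRC, while the SD over 3 passages was 0.475 to 0.994.

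The pathway or family of each member was examined through lists chosen with earlier results of these data known. In Short against EV and in Long against Short 0 of the list genes passed. In Long against EV 4 of the 10 actin cytoskeleton genes were higher: CFL1 (cofilin, which severs actin filaments; 0.22 ± 0.040, log2, SE), ACTN4 (the cross-linker alpha-actinin 4; 0.21 ± 0.050), PFN1 (profilin; 0.17 ± 0.041) and ACTG1 (gamma-actin; 0.17 ± 0.041), with limma adjusted p of 0.012 to 0.0329. Over all genes tested 1.99% were called higher in Long. The median of the 10 was 0.16, beside 0.04 for all genes tested. On the other lists the median ran from 0.03 (glycolysis) to 0.14 (HEK293 markers), with 0.12 for the other reference genes. A shift particular to the actin list is therefore not shown. With all libraries scaled to the same sum CFL1 alone of the 4 passed, with GC correction none did, and their direction held in both. Of the 16 genes on any list that passed in Long against EV, KRT8 included, 0 passed by limma without the passage block or without replicate 1, 1 without replicate 2 and 7 without replicate 3, with the same direction each time. With the same sum in each library 6 of the 16 passed, CFL1 and the 5 lower genes PGK1, LDHA, PPIG, PPIL4 and IREB2, and with GC correction PPIG alone did.

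Of 15 glycolysis genes 2 were lower in Long, PGK1 (-0.27 ± 0.053) and LDHA (-0.15 ± 0.040), which catalyse an ATP-forming step and the reduction of pyruvate, and 13 differed between passages, beside 36.4% of all genes. Among 11 cyclophilins, the family of PPIA, PPIG (-0.91 ± 0.150) and PPIL4 (-0.37 ± 0.077) were lower, and PPIG also had the highest SD of the family (0.719). With GC correction PPIG was at -0.57 and PPIL4 at -0.083. YWHAE was higher (0.19 ± 0.047), the only one of 6 genes on the 14-3-3 list. Among 8 tested genes of iron uptake and storage FTH1, the ferritin heavy chain, was higher (0.16 ± 0.043) and IREB2, an iron-sensing RNA-binding protein, was lower (-0.29 ± 0.077), and with GC correction they were at 0.093 and -0.080. In the MHC class I list CALR, a chaperone of the endoplasmic reticulum, was higher (0.18 ± 0.038) among 6 of 10 genes tested. None of 12 TFIID subunits and none of 14 genes of purine synthesis and salvage passed by limma, and the HEK293 marker KRT8 was higher (0.20 ± 0.054). Over all genes 1148 (8.32%) were called in Long against EV. Beside that share, 1 or 2 genes called on a list are not read as a result about its family. Of all genes 275 (1.99%) were called higher and 873 lower in Long, and with all libraries scaled to the same sum 57 and 1222.

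Of 33 other reference genes 31 were tested. RPS18, a ribosomal protein gene that every cell uses, was listed at 0 and TUBB under 1 FPKM, so a value of 0 in this table need not mean that a gene was silent. Of the 31, 4 passed in Long against EV, beside 8.32% of all genes. HSP90AB1 (0.19), RAB7A (0.17) and VCP (0.20) were higher in Long than in EV and PGK1 was lower. HSP90AB1, RAB7A and VCP did not pass with the same sum in each library (limma adjusted p = 0.0915, 0.207 and 0.101) or with GC correction, where PGK1 (0.0637) did not either. The least steady of the 31 was PGK1 (SD 0.366). Of the 31, 2 had a smaller SD than HPRT1, 18 were below GAPDH and 23 below ACTB. Among all genes that averaged at least 10 FPKM, 89.9% had a higher SD than HPRT1, 54.2% than GAPDH and 40.8% than ACTB.

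The 5 steadiest genes that averaged at least 10 FPKM were ZNF830 (14.3 to 15.1 FPKM, SD 0.0246), FAM120B (SD 0.0311), ATP5F1E (SD 0.0319), EZH2 (SD 0.0342) and MARK3 (SD 0.035). They were picked for their SD, which is therefore a description. So are the correlations that follow, each the highest among 7509 genes in libraries that share passages and scaling. The genes whose log2 values followed each member most closely over the 9 libraries, among 7509 genes, were PFN1 for ACTB (Pearson r = 0.988), PPP2R5C for YWHAZ (0.988), CCDC50 for TFRC (0.987), PYURF for PPIA (0.983), NME4 for GAPDH (0.978), TSPAN3 for B2M (0.978), PELO for HPRT1 (0.934) and ERMARD for TBP (0.883).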

How the data were processed

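Strand-specific RNA-seq was done in 9 HEK293 libraries, 3 each of EV, Short and Long. Reads were mapped by the authors with TopHat (version 1.4.1), first to transcripts of Ensembl and next to the hg19 genome, and the submitters' processing notes also name Cufflinks. The deposited values are FPKM of each Ensembl gene in each library, and replicates were not pooled. Whether strand was used in counting is not given in the sources used here. FPKM is relative to the other transcripts of a library.

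GENCODE annotation of GRCh37 named 47578 of 54562 genes (87.2%). limma (version 3.58.1, R version 4.3.3) was run on log2(FPKM + 1), by an intensity-trended eBayes fit of all 9 libraries with 3 groups and the passage as a block, over the 13801 genes that averaged at least 1 FPKM. Adjustment was by Benjamini-Hochberg (threshold 0.05). A pseudocount of 1 understates the change of low genes. The methods state that transfections were repeated in 3 passages. The labels give replicate numbers only, so using the number as the passage is an assumption. Deviations from the group mean correlated at 0.327 to 0.813 (mean 0.552) between same-numbered libraries. For different numbers they correlated at -0.634 to 0.366 (mean -0.256). Centring on a group of 3 pulls the latter below 0, so the contrast is no independent check of the pairing. EV replicate 1 with Short replicate 2 (0.366) was above EV replicate 2 with Short replicate 2 (0.327). Spread was the SD of log2 FPKM without a pseudocount. Pseudogene copies were aligned with Biopython (version 1.88). On simulated data with known changes in Long against EV the fit recovered nearly all large changes and none of the small ones. Even the small changes were larger than most of the members' differences. Fewer genes were changed in the simulation than were called in the data, so it does not give the power of the fit here. A member that was not called may still have changed.

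The members and lists were chosen with earlier results of these data known. The genes to be named were the members, ADARB1, list genes that passed a test, the 5 genes with the lowest SD, the gene most correlated with each member, and pseudogenes of a member. The rule also covered the steadiest and least steady gene of each list, most of which are not printed. A result that this rule would name among the other reference genes is not reported here.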

Additional observations from a re-analysis of the deposited data

How the results depend on the processing

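The number of genes called over the whole table depended strongly on the fit. In Short against EV 5 genes were called. The count was 3 with GC correction, 3 by eBayes without a trend, 3 at a minimum mean of 5 FPKM, 16 with no filter and 2 without the replicate block, and 2 to 59 with a replicate left out. In Long against EV 1148 genes were called. The count was 319 with GC correction, 646 without a trend, 12 with no filter, 752 with only the groups compared and 2 without the replicate block, and 2 (without replicate 1) to 1031 with a replicate left out. In Long against Short 1 gene was called. By limma the count was 0 without a trend (1014 genes at an unadjusted p under 0.05), 0 without the replicate block, 12 with no filter, 3 with only the groups compared and 0 to 9 with a replicate left out. Between passages 5028 genes were called, 243 with no filter and 30 (without replicate 3) to 4749 with a replicate left out. With no filter 54562 genes were tested, and for the other settings the cause was not tested.

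The count of members steadier than GAPDH, 5, became 3 with the same sum in each library, 2 with GC correction, 0 for the residuals of the replicate block and 1 for the differences from EV, and it was 0 to 5 with a replicate left out. The count steadier than ACTB, 6, became 2 for the residuals of the replicate block and 0 for the differences from EV.

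Differences of members near 0 changed sign between settings, and none of these passed the test in any alternative. With the same sum in each library the log2 difference from EV was -0.047 (B2M) and -0.070 (YWHAZ) in Short, and -0.065 (GAPDH), -0.0017 (TBP), -0.0013 (B2M) and -0.061 (YWHAZ) in Long. With median-ratio scaling it was -0.019 (B2M) and -0.043 (YWHAZ) in Short and -0.035 (GAPDH) and -0.031 (YWHAZ) in Long. With GC correction it was 0.064 (HPRT1) in Short and -0.078 (GAPDH) and 0.11 (HPRT1) in Long. For YWHAZ in Long against Short these 3 settings gave 0.0083, 0.011 and 0.0067. With a replicate left out the Short difference ran from -0.082 to 0.017 (TBP), -0.12 to 0.020 (HPRT1), -0.037 to 0.096 (B2M), -0.10 to 0.086 (YWHAZ) and -0.35 to 0.087 (TFRC). The Long difference ran from -0.016 to 0.025 (GAPDH), -0.042 to 0.056 (HPRT1) and -0.032 to 0.037 (YWHAZ). Long against Short ran from -0.049 to 0.052 (ACTB), -0.045 to 0.080 (HPRT1), -0.037 to 0.014 (PPIA) and -0.050 to 0.069 (YWHAZ). ADARB1 relative to TFRC ran from -0.21 to 0.087, positive only without replicate 3, and relative to each of the other 7 members it stayed below 0 in every alternative. Summing PPIA with PPIAP22 or YWHAZ with YWHAZP3, and dividing ADARB1 by TBP and HPRT1 together (-0.33), were chosen after seeing the data.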
